A study of Mus musculus with 6 samples.

Results

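The mitochondrial respiratory chain and the ATP synthase are built from the products of separate genomes. Most subunits are encoded by nuclear genes, made in the cytosol and imported, and a small core is encoded by the mitochondrial DNA and made inside the organelle. Complex I oxidises NADH, complex II oxidises succinate, complex III passes electrons from ubiquinol to cytochrome c, complex IV reduces oxygen, and complex V uses the resulting proton gradient to make ATP. Complex II alone has no mitochondrially encoded subunit. Respiratory chain genes were taken by name (Nduf without the Ndufaf assembly factors, Sdha to Sdhd, Uqcr, Cox4 to Cox8, Atp5, mt-Nd, mt-Cytb, mt-Co and mt-Atp), which gave 97 of the 53465 genes in the table. Of these, 84 are nuclear and 13 mitochondrial, and 7 pseudogenes matched by the same names were left out.

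RNA was sequenced from 6 cell lines, each grown from a liver tumour of a different C57BL/6 mouse, so that each line stands for 1 tumour and 1 animal. Tumours had been started in adult female mice by hydrodynamic tail vein injection of a Myc transposon and of plasmids for Cas9 and a guide RNA, so Myc overexpression is common to all lines. The 3 Myc_Utx lines (2A, 2B and 2D) came from Kdm6a-deficient tumours, Utx being another name of Kdm6a, a histone H3K27 demethylase, and the 3 Myc_p53 lines (1, 2 and 3) came from p53 knockout tumours. There was no line with Myc alone. Each difference below thus sets lines targeted at Kdm6a and not at p53 against lines targeted at p53 and not at Kdm6a.

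The deposited counts summed to between 4656103 and 6937497 reads per line. Trp53 mRNA was at 287 ± 10.9 (SD, n = 3) TMM-normalised CPM (read counts scaled to a common library size) in Myc_Utx and 34.1 ± 1.70 in Myc_p53 lines, whereas Kdm6a mRNA was at 44.6 ± 4.69 and 58.6 ± 14.3 with overlap between the groups (log2 fold change -0.39, edgeR adjusted p = 0.243). A frameshift made by Cas9 need not lower the mRNA of the gene that carries it. Hepatocyte markers were low in all lines, with Cps1, Fabp1 and Serpina1a at 3 counts or fewer throughout and a summed level of 1.77 to 8.57 CPM over 8 markers in Myc_Utx and 16.8 to 63.0 in Myc_p53 lines. Apob was the largest part of the sum in Myc_p53 lines (13.8, 13.1 and 53.6 CPM), and with Hnf4a it was lower in every Myc_Utx line. Other markers differed: Alb overlapped (log2 fold change 0.52, edgeR adjusted p = 0.578), and Apoa1, at 5 counts or fewer, was higher in every Myc_Utx line. The 8 macrophage markers summed to 2.78 to 5.96 CPM and 39.7 to 108 CPM, and Ptprc was at 3 counts or fewer in every line. Of the 6 macrophage markers tested, 5 were called lower in Myc_Utx, beside 7.69% of all genes tested. Progenitor or cholangiocyte markers summed to 508 to 1435 CPM in Myc_Utx and 152 to 1455 CPM in Myc_p53 lines. Of these, Krt19 and Krt7 were lower in every Myc_Utx line, while Sox9, Spp1 and Epcam overlapped. Fibroblast or stellate markers summed to 115 to 275 and 19.7 to 183 CPM. The part of these markers in the results below was not tested, and in bulk RNA fewer cells of a type and less RNA per cell cannot be told apart.

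Nuclear respiratory chain genes were higher in the Myc_Utx lines, while mitochondrial ones overlapped between the genotypes. The nuclear genes took 1.26%, 1.23% and 1.37% of counted reads in Myc_Utx lines 2A, 2B and 2D, and 1.02%, 1.05% and 0.894% in Myc_p53 lines 1, 2 and 3. Every Myc_Utx line was above every Myc_p53 line. The mitochondrial genes took 1.85%, 2.41% and 2.10% against 2.70%, 2.34% and 1.95%, and these ranges overlapped. Of the 13 mitochondrial genes, 6 had at most 2 counts in any line, so their shares and the ratio below rest on the other 7. As a ratio of counts within each line, mitochondrial over nuclear, the values were 1.65 ± 0.271 (SD, n = 3) in Myc_Utx and 2.35 ± 0.255 (SD, n = 3) in Myc_p53 lines. The highest Myc_Utx ratio, 1.96 in line 2B, lay below the lowest Myc_p53 ratio, 2.19 in line 3.

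**Figure D1:**
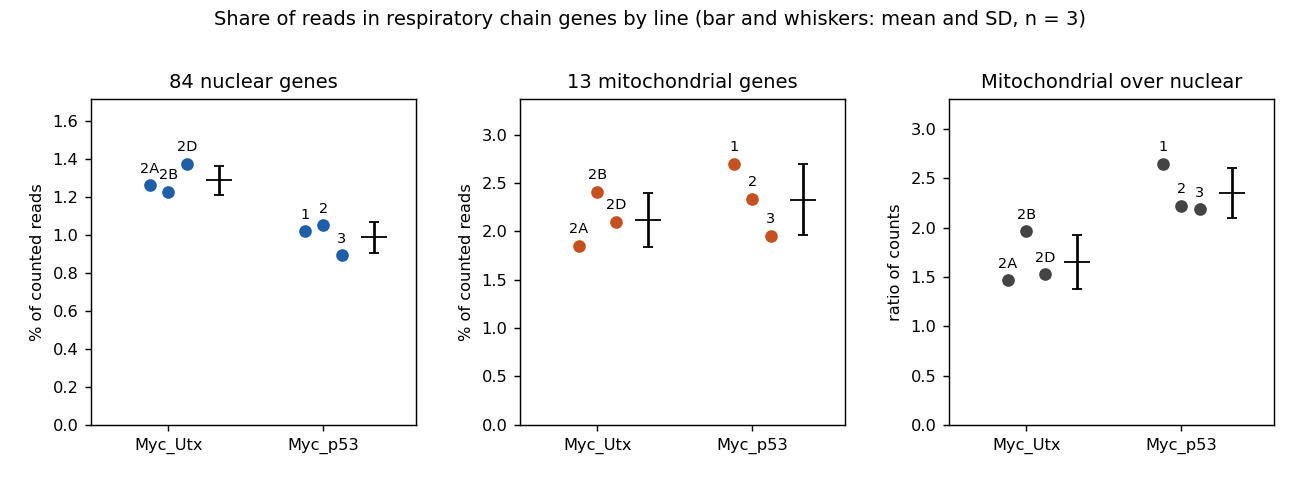
Share of counted reads in nuclear (left) and mitochondrial (middle) respiratory chain genes, and their ratio (right), by line, with group mean and SD (n = 3). Nuclear shares of Myc_Utx lines lie between 1.23% and 1.37%, above all Myc_p53 lines, while mitochondrial shares overlap. Of the 13 mitochondrial genes, 6 have at most 2 counts in any line.

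Gene by gene, 83 members passed the filter on low counts and were tested with edgeR's quasi-likelihood test, with Benjamini-Hochberg adjustment over all 11510 genes tested. Log2 fold changes are Myc_Utx over Myc_p53 and ± is the SD over 3 lines. Of the 76 nuclear genes tested, 20 were higher in Myc_Utx lines at an adjusted p under 0.05 and 0 were lower, against 6.99% of all genes tested that were higher and 7.69% that were lower. In 48 of the 76, every Myc_Utx line was above every Myc_p53 line and in 0 below, whereas 21.1% of all genes had this order and 20.9% the opposite order. An unadjusted p under 0.05 with a higher level in Myc_Utx was reached by 42 of the 76 and by 16.6% of all genes. The fitted log2 fold change was above 0 for 74 of the 76, compared with 49.2% of all genes, and the median was 0.49 beside -0.01 for all genes. Of the 7 mitochondrial genes tested, 0 passed the adjusted threshold, 0 had an unadjusted p under 0.05, and the median log2 fold change was -0.01. DESeq2 called 32 nuclear genes higher, when it called 9.57% of all genes higher and 11.8% lower, and likewise called 0 mitochondrial genes.

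**Figure D2:**
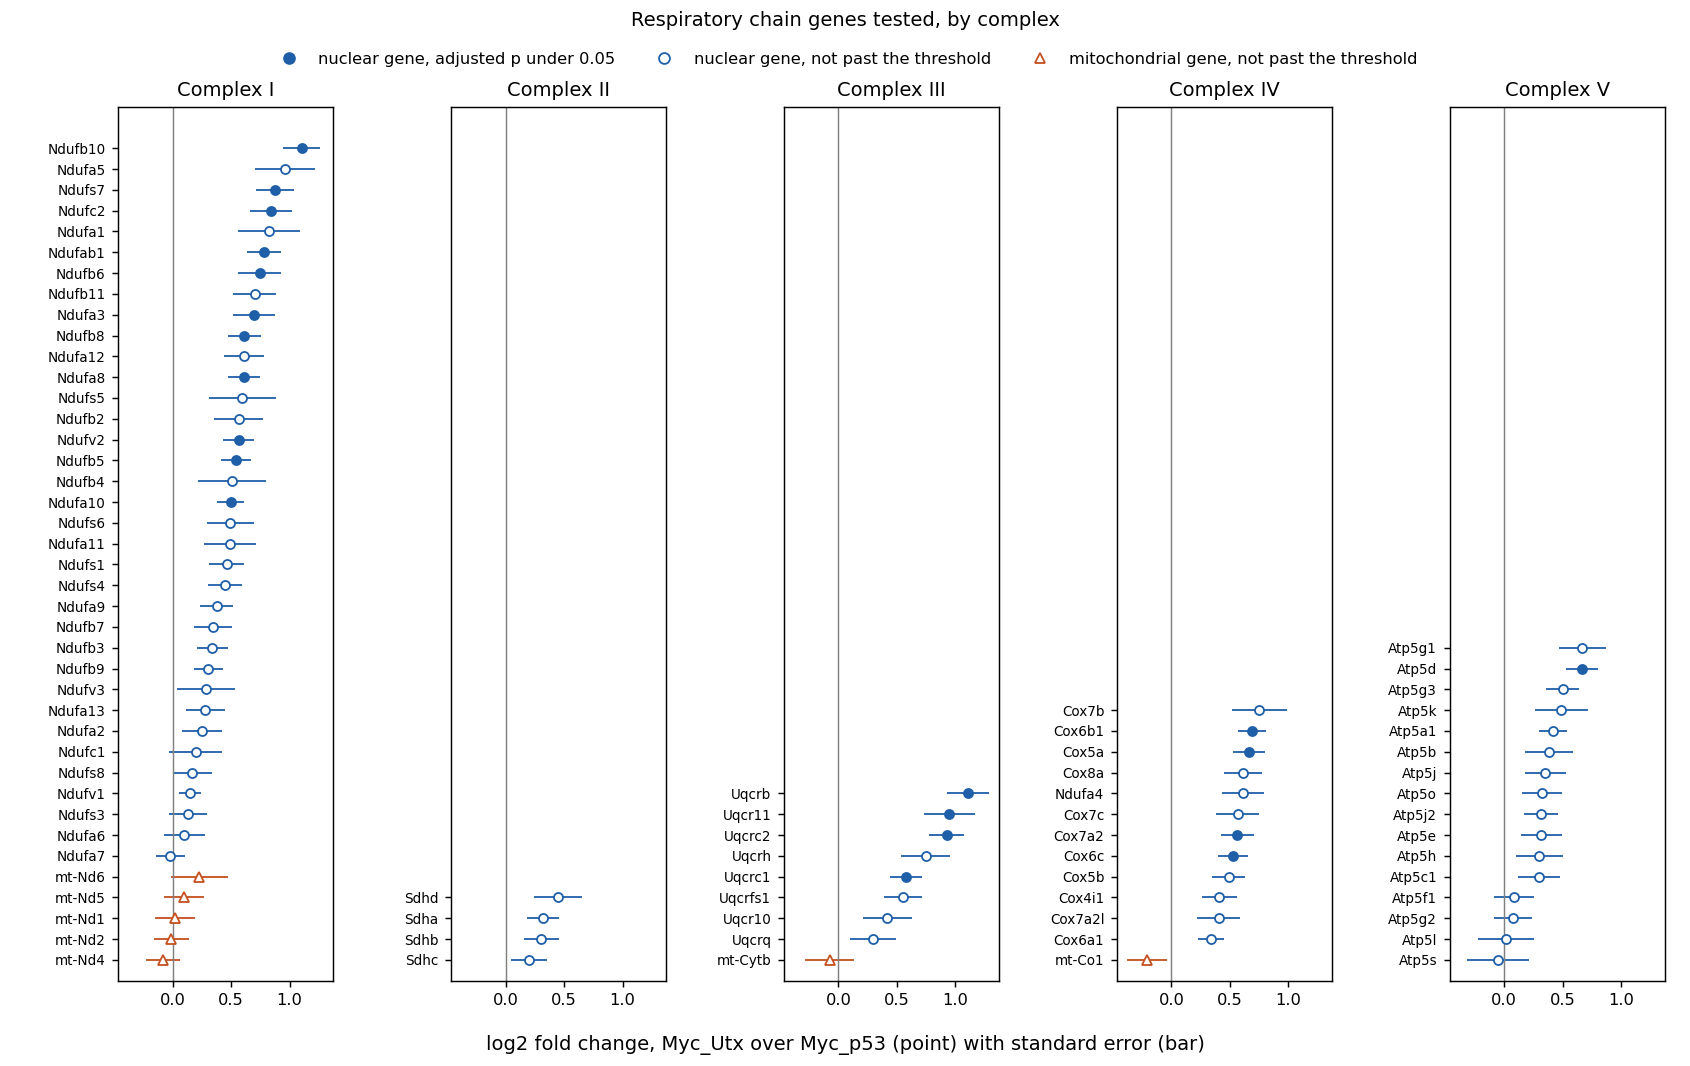
Log2 fold change of the tested respiratory chain genes, Myc_Utx over Myc_p53, by complex (1 gene is not drawn), with its standard error as a bar. Filled circles are the 20 nuclear genes at an adjusted p under 0.05, and the 7 mitochondrial genes (triangles) lie between -0.21 and 0.23.

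The calls rest on few lines. With Myc_Utx line 2A, 2B or 2D or Myc_p53 line 3 left out, edgeR called 0 nuclear genes higher, and over all genes of those fits it called 3, 43, 43 and 63 of 12064, 12058, 12127 and 11714. An unadjusted p under 0.05 with a higher level in Myc_Utx was then reached by 40, 41, 33 and 32 of the 76 nuclear genes, beside 13.9%, 12.9%, 11.96% and 13.7% of all genes. With Myc_p53 line 1 left out, 11 nuclear genes were called higher beside 481 of 11777 genes in all, and with line 2 left out 17 beside 836 of 11927.

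Complex I had the most called genes, 11 of 36 nuclear genes, with a median log2 fold change of 0.49. Of all genes tested, 6.99% were called higher, and 21.1% had every Myc_Utx line above every Myc_p53 line. Ndufb10, an accessory subunit of the membrane arm (ENSMUSG00000040048, chromosome 17 of GRCm38, 24722060 to 24724478), was at 92.9, 87.0 and 117 CPM in Myc_Utx lines 2A, 2B and 2D and at 50.2, 45.7 and 42.1 CPM in Myc_p53 lines 1, 2 and 3. Even the lowest Myc_Utx line was well above the highest Myc_p53 line. Its log2 fold change was 1.10 (standard error 0.157, edgeR adjusted p = 0.0164). Ndufab1, the mitochondrial acyl carrier protein, which serves both complex I and fatty acid and lipoate synthesis, was at 59.3, 63.9 and 71.1 against 42.2, 34.9 and 35.9 CPM, a log2 fold change of 0.78 (standard error 0.147, edgeR adjusted p = 0.0250). The groups did not overlap.

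The 7 nuclear core subunits of complex I, which hold its flavin and iron-sulfur clusters, were not uniform. Ndufs7, which carries the last iron-sulfur cluster before ubiquinone, was at 69.1, 73.1 and 92.0 CPM in Myc_Utx lines and 37.9, 46.1 and 43.4 CPM in Myc_p53 lines. Here too the groups were apart, with line 2D highest, and the log2 fold change was 0.88 (standard error 0.163, edgeR adjusted p = 0.0247). Ndufv2, an iron-sulfur subunit of the NADH-oxidising module, also rose, by 0.56 on the log2 scale (standard error 0.133, edgeR adjusted p = 0.0407). The largest core subunit, Ndufs1, was at 187, 196 and 228 against 126, 172 and 146 CPM, without overlap (log2 fold change 0.46, edgeR adjusted p = 0.0843). Ndufv1, the flavin-bearing partner of Ndufv2, was at 146, 137 and 148 against 129, 135 and 126 CPM. Its groups were also apart, but by little, with a log2 fold change of 0.15 (edgeR adjusted p = 0.312). Ndufs3 and Ndufs8, which lie in the arm towards ubiquinone with Ndufs7, overlapped between groups and had log2 fold changes of 0.13 and 0.17. Of the 7 core genes 2 were called, and of the 29 accessory genes 9, beside 6.99% of all genes tested. The median log2 fold change of the accessory genes was 0.51.

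Besides Ndufb10 and Ndufab1, the called accessory genes were Ndufc2, Ndufa8, Ndufb8, Ndufa10, Ndufb5, Ndufb6 and Ndufa3, with log2 fold changes from 0.50 for Ndufa10 to 0.84 for Ndufc2. Ndufb11 and Ndufa5 lay just past the threshold. Ndufb11 was at 101, 75.3 and 107 against 67.0, 51.3 and 55.8 CPM (log2 fold change 0.70, edgeR adjusted p = 0.0503). Ndufa5 was at 38.9, 43.8 and 54.96 against 29.9, 16.6 and 24.1 CPM (log2 fold change 0.96, edgeR adjusted p = 0.0535). Neither gene overlapped between groups. At the other end, Ndufa7 was the only nuclear complex I gene with a fitted log2 fold change under 0, at 80.6, 75.3 and 92.0 against 82.9, 87.8 and 80.6 CPM, which overlapped.

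None of the 4 complex II genes passed the threshold, and their median log2 fold change was 0.31. Sdha, the flavoprotein that oxidises succinate and also works in the tricarboxylic acid cycle, was at 357, 359.7 and 389.8 CPM in Myc_Utx lines and 325, 318 and 243 CPM in Myc_p53 lines. It was the only 1 of the 4 genes without overlap, where 21.1% of all genes had every Myc_Utx line above. Its log2 fold change was 0.32 (standard error 0.138, edgeR adjusted p = 0.155). The iron-sulfur subunit Sdhb and the membrane anchors Sdhc and Sdhd had log2 fold changes of 0.31, 0.20 and 0.45 (edgeR adjusted p = 0.203, 0.379 and 0.179). In each of the 3, at least 1 Myc_p53 line reached into the Myc_Utx range.

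Complex III had the largest share of its genes called, 4 of 8, and the highest median log2 fold change of the complexes, 0.66. The share called higher over all genes tested was 6.99%. Uqcrb, a subunit close to the ubiquinone site (ENSMUSG00000021520, chromosome 13, 66900617 to 66905378), was at 64.5, 71.9 and 85.8 CPM in Myc_Utx lines and 40.3, 31.7 and 30.9 CPM in Myc_p53 lines. The groups were far apart, and the log2 fold change of 1.11 (standard error 0.178, edgeR adjusted p = 0.0187) was the largest of the 83 members tested. Uqcrc2, a core protein of the matrix side, was at 221, 222 and 264 against 146, 108 and 118 CPM, a log2 fold change of 0.93 (standard error 0.150, edgeR adjusted p = 0.0188). Its partner Uqcrc1 rose less, by 0.57 (standard error 0.137, edgeR adjusted p = 0.0417), and the small subunit Uqcr11 by 0.95 (standard error 0.214, edgeR adjusted p = 0.0366). Uqcrfs1, the Rieske iron-sulfur protein, was at 196, 196 and 240.2 against 174, 126 and 131 CPM. All its Myc_Utx lines were higher, and it missed the threshold (log2 fold change 0.55, edgeR adjusted p = 0.0673).

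Cytochrome c1 and cytochrome c, the haem proteins on either side of the exit from complex III, do not carry the name prefixes and were looked at beside the members. Cyc1 was at 246, 247 and 354 CPM in Myc_Utx lines and 176, 183 and 133 CPM in Myc_p53 lines, a log2 fold change of 0.79 (standard error 0.201, edgeR adjusted p = 0.0482). Cycs, which also activates caspases when released, was at 86.7, 102 and 133 against 43.9, 27.9 and 47.1 CPM. The groups did not overlap in either gene, and the log2 fold change of Cycs, 1.43 (standard error 0.256, edgeR adjusted p = 0.0226), was above that of every respiratory chain gene taken by name. The testis form Cyct had 0 counts in every line. Repeated sequence, counted below for the members, was not counted for Cycs or Cyc1.

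Of the 20 nuclear complex IV genes, 12 were tested and 4 were called, and in 11 of the 12 the groups did not overlap. The gene with overlap was Cox7a2l, taken by name though not a structural subunit (log2 fold change 0.41, edgeR adjusted p = 0.170). The shares over all genes tested were 6.99% called higher and 21.1% with every Myc_Utx line above. Ndufa4, which is named after complex I but is counted here with complex IV, where it is now placed, is among the 12. Cox6b1, on the intermembrane side (ENSMUSG00000036751, chromosome 7, 30616861 to 30626151), was at 163, 156 and 188 CPM in Myc_Utx lines and 111, 97.03 and 105 CPM in Myc_p53 lines. Lines within a group lay close together, and the log2 fold change was 0.69 (standard error 0.120, edgeR adjusted p = 0.0206). Cox5a, Cox7a2 and Cox6c rose by 0.66, 0.56 and 0.53 (edgeR adjusted p = 0.0300, 0.0477 and 0.0446). Cox8a was at 213, 210.4 and 279 against 176, 147 and 136 CPM, without overlap, with a log2 fold change of 0.61 (edgeR adjusted p = 0.0519). Cox4i1, the largest nuclear subunit, had a log2 fold change of 0.41 (edgeR adjusted p = 0.104) and Cox6a1 0.34 (edgeR adjusted p = 0.0876).

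Several complex IV subunits exist in forms that differ between tissues, and the lines expressed the forms found in liver and most other tissues. The muscle, lung or testis forms Cox4i2, Cox6a2, Cox6b2, Cox7a1, Cox7b2, Cox8b and Cox8c, and Ndufa4l2, a hypoxia-induced relative of Ndufa4, had at most 3 counts in any line. These 8 genes account for all nuclear members that were not tested. Their widely expressed counterparts Cox4i1, Cox6a1, Cox6b1, Cox7a2, Cox7b, Cox8a and Ndufa4 were all without overlap between the groups, with log2 fold changes from 0.34 for Cox6a1 to 0.75 for Cox7b. Among all genes tested, 21.1% had every Myc_Utx line above every Myc_p53 line.

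Complex V had 1 called gene of 16, or 6.25%, close to the 6.99% of all genes tested. Its median log2 fold change was 0.32, and in 7 of the 16 every Myc_Utx line was above, beside 21.1% of all genes. Atp5d, the delta subunit of the central stalk (ENSMUSG00000003072, chromosome 10, 80138632 to 80145818), was at 252, 269 and 328 CPM in Myc_Utx lines and 197, 168 and 169 CPM in Myc_p53 lines. The groups were apart, and its log2 fold change was 0.66 (standard error 0.139, edgeR adjusted p = 0.0310). Atp5b, the catalytic beta subunit, was at 2111, 2037 and 1353 CPM against 1397, 1613 and 1219.7 CPM. Line 2D lay inside the Myc_p53 range, unlike 2A and 2B, and the log2 fold change was 0.38 (standard error 0.204, edgeR adjusted p = 0.233). Its partner Atp5a1 was at 1529, 1476 and 1718 against 1161, 1297 and 1086 CPM, without overlap (log2 fold change 0.41, edgeR adjusted p = 0.0634).

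The remaining head and stalk genes, Atp5c1 and Atp5e, had log2 fold changes of 0.30 and 0.32 with overlap. The c ring, through which protons pass, is made from copies of an identical mature protein encoded by Atp5g1, Atp5g2 and Atp5g3. Atp5g3 was at 443, 454 and 560.3 against 331, 389 and 309.9 CPM (log2 fold change 0.50, edgeR adjusted p = 0.0618) and Atp5g1 at 89.3, 88.9 and 111 against 59.0, 75.3 and 48.0 CPM (0.67, edgeR adjusted p = 0.0668). The groups did not overlap in these, whereas Atp5g2 was at 35.5, 35.6 and 40.3 against 37.3, 38.7 and 29.8 CPM (0.08, edgeR adjusted p = 0.766), with overlap. Atp5s, a coupling factor rather than a subunit, was the other nuclear member with a fitted log2 fold change under 0 (-0.05, edgeR adjusted p = 0.906).

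**Figure D3:**
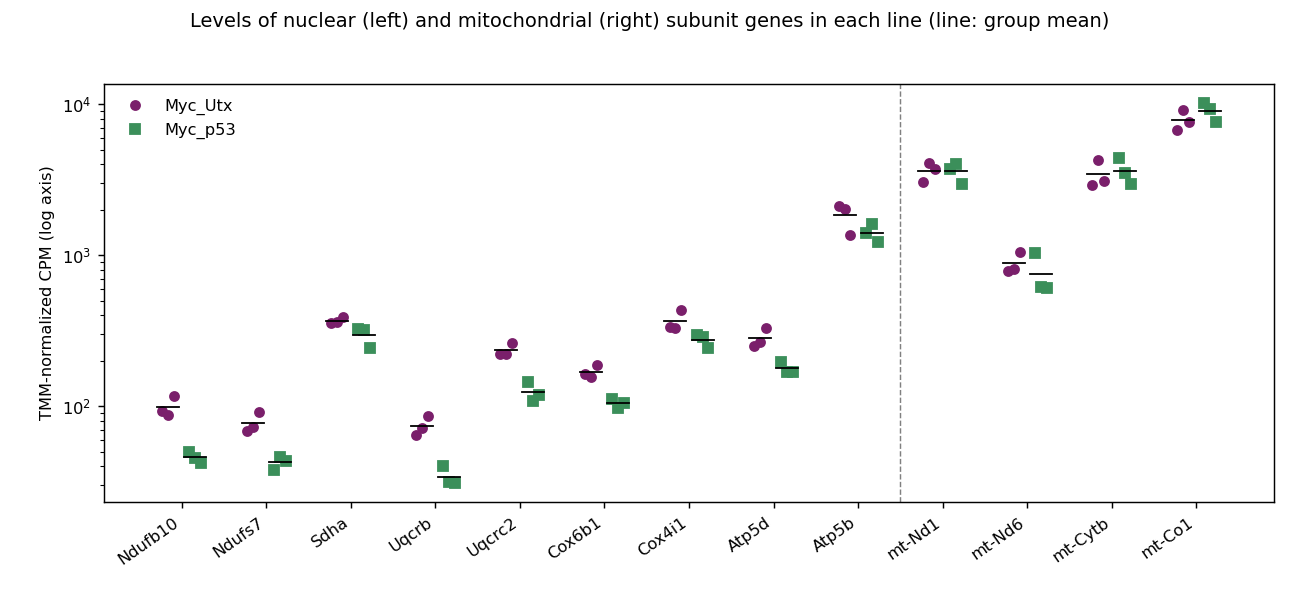
TMM-normalised CPM (log axis) of 9 nuclear and 4 mitochondrial subunit genes in each line, with group means as bars. In 8 of the 9 nuclear genes the Myc_Utx lines lie above all Myc_p53 lines, Atp5b being the exception, and the 4 mitochondrial genes overlap. Among all genes tested, 21.1% have every Myc_Utx line above.

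Line 2D carried the highest nuclear levels. It had the highest CPM of the 6 lines in 71 of the 76 nuclear genes tested, Myc_p53 line 3 had the lowest in 43, and the remaining lowest values were spread over line 2 (18), line 1 (13) and line 2B (2). Without line 2D, the median log2 fold change of the nuclear genes was 0.37, and 71 of the 76 were above 0.

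None of the 7 mitochondrial genes tested separated the genotypes. Per kilobase of the deposited transcript length, mt-Co1, the catalytic subunit of complex IV, was at 5077 CPM in Myc_Utx and 5868 CPM in Myc_p53 lines, compared with 502 and 377 for Atp5a1, the highest nuclear member on the same scale. That length was within 10% of the merged length of all annotated exons in 87 of the 97 members, so it can exceed the mRNA expressed. Without division by length, Atp5b was above Atp5a1, at 1834 and 1410 CPM against 1574 and 1181 CPM. By line, mt-Co1 was at 6769.6, 9110.5 and 7653 CPM against 10229, 9358 and 7612 CPM. Line 2A was lowest and Myc_p53 line 1 highest, with the others mixed, and the log2 fold change was -0.21 (standard error 0.172, edgeR adjusted p = 0.425). For mt-Cytb, the only mitochondrial subunit of complex III, 2927, 4276 and 3079.5 CPM stood against 4377, 3491 and 2958 CPM. These values overlapped almost completely (log2 fold change -0.07, standard error 0.211, edgeR adjusted p = 0.825).

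The mitochondrial complex I genes, which encode its proton-pumping membrane core, also overlapped in each case. mt-Nd1 was at 3069, 4081 and 3754 CPM against 3754, 4037 and 2976 CPM, a log2 fold change of 0.02 (standard error 0.170, edgeR adjusted p = 0.950). mt-Nd6, the only protein-coding gene on the opposite strand of the mitochondrial DNA, was at 788, 814 and 1047 CPM against 1037, 617 and 608 CPM. Line 1 was the Myc_p53 line that reached the top of the Myc_Utx range, and the log2 fold change was 0.23 (standard error 0.245, edgeR adjusted p = 0.540). Whether strand was used in counting is not given in the sources used here, so reads of mt-Nd6 and of the transcript opposite it may not have been told apart. mt-Nd2, mt-Nd4 and mt-Nd5 had log2 fold changes of -0.01, -0.08 and 0.10. The mitochondrial ribosomal RNAs took 0.461% ± 0.0810 and 0.374% ± 0.0707 of reads (SD, n = 3 each), and the whole mitochondrial chromosome 2.24% to 2.96% and 2.27% to 3.16%.

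The other 6 mitochondrial genes, mt-Co2, mt-Co3, mt-Atp6, mt-Atp8, mt-Nd3 and mt-Nd4l, had at most 2 counts in any line, beside 3346 to 65036 for the 7 that were tested. They belong to the same long precursor transcript as mt-Co1 and mt-Cytb, so their position in the genome was examined. The mouse nuclear genome holds a copy of this stretch of mitochondrial DNA on chromosome 1, annotated as a row of pseudogenes. The share of each gene's 50-base windows that also occurred in another GENCODE M21 transcript was 100% for mt-Co2, 99.9% for mt-Co3, 99.5% for mt-Atp6, 98.8% for mt-Nd4l and 97.99% for mt-Nd3. It was 0% for mt-Nd1, mt-Nd6 and mt-Cytb, 8.19% for mt-Nd2 and 7.61% for mt-Nd5. mt-Co1 and mt-Nd4 lay between, at 51.1% and 62.2%, and mt-Nd4 was repeated over its bases 1 to 876. mt-Atp8, at 0%, was the exception, since its position falls in a gap between the annotated copies Gm28661 and Gm10925. How reads that match several places were counted is not given in the sources used here, and the part of the repeated sequence in these levels was not tested.

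The start of mt-Co2 and of its copy, and of mt-Nd3 and of its copy, are shown because they give the extent to which gene and copy are alike, with the bases that differ in capitals (GRCm38, GENCODE M21 transcripts, mt genes at MT:7013-7072 and MT:9459-9518 on the plus strand, Gm28661 at chr1:24615506-24615565 and Gm28438 at chr1:24613060-24613119 on the minus strand).
mt-Co2: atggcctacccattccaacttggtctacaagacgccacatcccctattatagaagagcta
Gm28661: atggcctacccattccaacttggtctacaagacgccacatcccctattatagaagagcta
mt-Nd3: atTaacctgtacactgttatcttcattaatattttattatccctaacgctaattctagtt
Gm28438: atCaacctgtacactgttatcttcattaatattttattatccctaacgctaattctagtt

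No base differed between mt-Co2 and Gm28661 over the 681 bases of the copy, and mt-Atp6, mt-Co3 and mt-Nd4l were likewise identical to Gm10925, Gm28437 and Gm10222. Gm28438 differed from mt-Nd3 by a single substitution, T3C, counted from the first base of the gene. It was also the only one of these copies with more than 6 counts in any line, at 53, 173 and 50 counts in Myc_Utx and 225, 199 and 232 counts in Myc_p53 lines, while mt-Nd3 itself had 0 or 1.

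**Figure D4:**
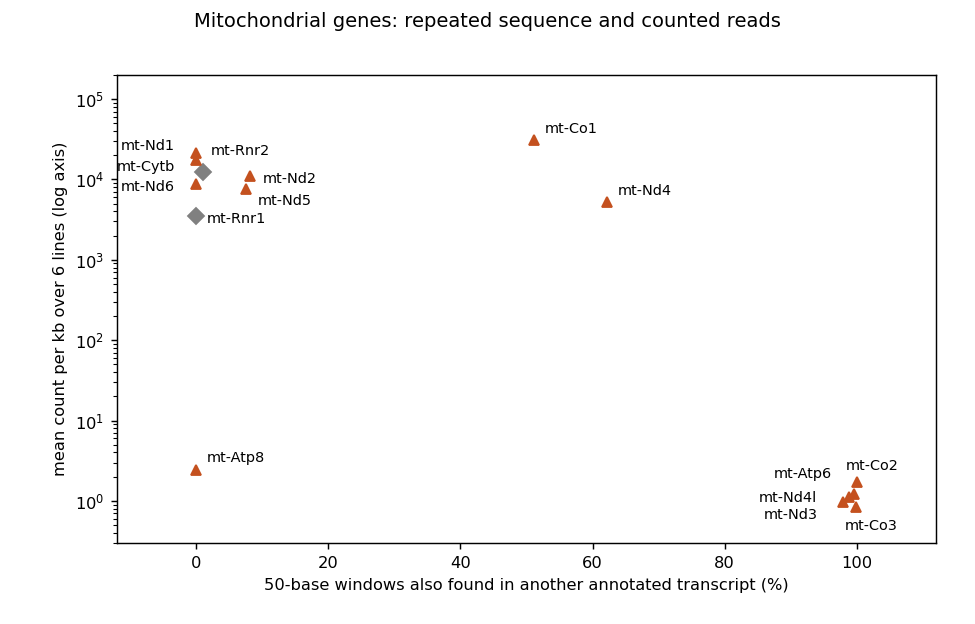
Mean count per kilobase over 6 lines (log axis) of the 13 mitochondrial protein-coding genes (triangles) and the 2 mitochondrial ribosomal RNAs (diamonds), against the percentage of 50-base windows found in another annotated transcript. The 5 genes at or above 97.99% and mt-Atp8 have at most 2 counts in any line, and the rest lie far above them.

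Nuclear respiratory chain genes have processed pseudogenes of their own, so the same count of windows was made over their coding sequences. Genes outside the members, such as Cycs, Cyc1 and Slc25a5, were left out of this count. Of the 76 nuclear genes tested, 34 shared no window with another gene, 27 shared up to 50% and 15 shared more. The median log2 fold change was 0.47 over the 34 with no shared window, 0.38 over the 27 and 0.53 over the 15. Of them, 11, 6 and 3 were called, beside 6.99% of all genes tested. Ndufs7, Ndufb10, Cox6b1 and Atp5d were among the 34. In Uqcrb, 72.9% of windows were repeated, in Ndufab1 99.8%, in Atp5g1 99.7% and in Atp5g2 100%, so the levels of these genes are uncertain, including the contrast of Atp5g1 and Atp5g2 with Atp5g3, in which 0% were repeated. Atp5l, a membrane subunit of the ATP synthase with 100% of windows repeated over 14 other genes, was at 2.20 CPM per kilobase in Myc_Utx and 2.18 in Myc_p53 lines. These values use its deposited length of 6443 bases, the merged length of its annotated exons.

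The deposited transcript length, in most members close to the merged length of all annotated exons, moved with the fold changes. The nuclear members tested had a median deposited transcript length of 1688 bases and the mitochondrial ones 1144 bases, against 4441 bases for all genes tested, and across all genes tested the log2 fold change fell with length (Spearman rho = -0.249, genes not being independent). Among the nuclear members rho was -0.240. With a length term fitted in each line, 7 nuclear genes were called higher (Ndufab1, Ndufb10, Ndufb5, Ndufs7, Uqcrb, Uqcrc1 and Uqcrc2) when 6.00% of all genes were, 68 of the 76 kept a log2 fold change above 0, and the median was 0.29. Cox6b1 and Atp5d then had log2 fold changes of 0.37 and 0.48 (edgeR adjusted p = 0.0681 and 0.0570). All 7 mitochondrial genes were below 0 in this fit, with a median of -0.29, 0 called and 1, mt-Co1, at an unadjusted p under 0.05. The difference between the medians of the genomes was thus present with and without the length term, while both medians were lower with it.

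**Figure D5:**
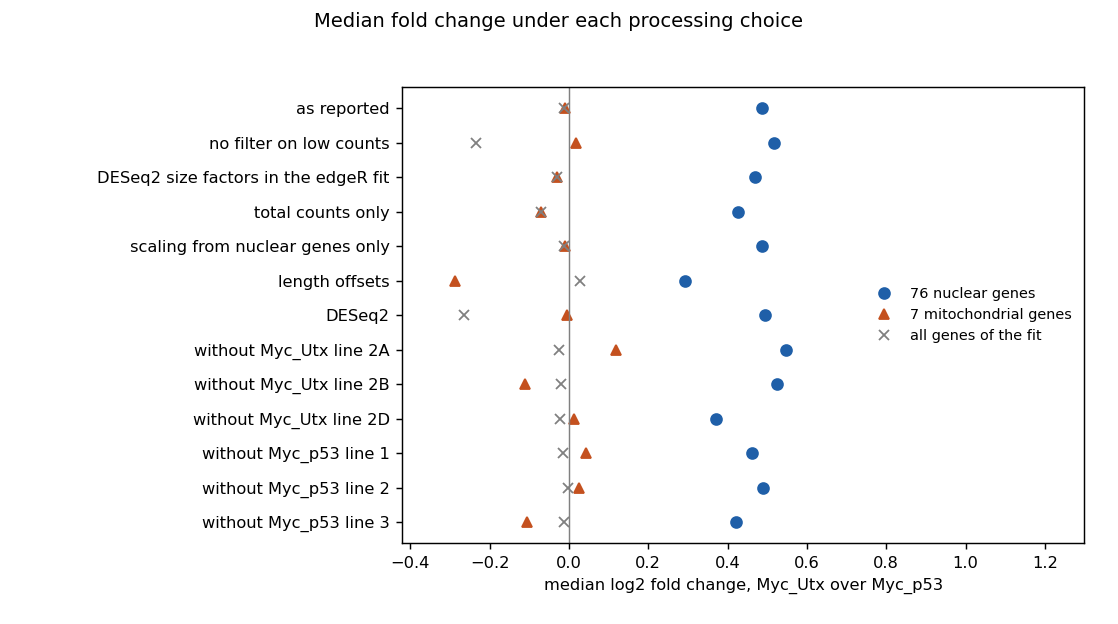
Median log2 fold change, Myc_Utx over Myc_p53, of the 76 nuclear genes (circles), the 7 mitochondrial genes (triangles) and all genes of each fit (crosses), one row per processing choice or line left out. Nuclear medians lie between 0.29 and 0.55, and mitochondrial medians between -0.29 and 0.12.

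Proteins that build, supply or surround the respiratory chain were read from lists of their own. For scale, 6.99% of all genes tested were called higher and 7.69% lower, and 16.6% were higher at an unadjusted p under 0.05. Of 15 complex I assembly factors tested, 3 were higher and 0 lower (Ndufaf3, Ndufaf6 and Ecsit, log2 fold changes 1.16, 0.91 and 0.72), and of 6 complex III factors 1, Uqcc3 (1.204, edgeR adjusted p = 0.0265). Of the 4 complex II, 17 complex IV and 4 complex V factors, edgeR called 0, with 2, 4 and 0 higher at an unadjusted p under 0.05. The medians of the 5 lists lay between 0.34 and 0.52. In the tricarboxylic acid cycle, which feeds NADH and succinate to complexes I and II, 5 of 14 enzymes were higher and 0 lower. The 4 of lowest p were citrate synthase (Cs, log2 fold change 0.67, edgeR adjusted p = 0.0164), fumarase (Fh1, 0.81), the isocitrate dehydrogenase subunit Idh3a (0.80) and malate dehydrogenase (Mdh2, 0.44). Among 18 genes of the mitochondrial membranes and protein import, 6 were higher and 0 lower. The 4 of lowest p were the ADP/ATP carrier Slc25a5 (log2 fold change 1.29, edgeR adjusted p = 0.0141), the import channel Tomm40 (1.05, edgeR adjusted p = 0.0164), the import receptor Tomm22 (0.82) and Timm50 of the inner membrane translocase (0.63).

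Median log2 fold changes were lower for the machinery of mitochondrial gene expression and for nuclear regulators of respiration. Among all genes tested, 6.99% were called higher, and 1915 and 2110 of 11510 were higher and lower at an unadjusted p under 0.05. Of 14 genes for mitochondrial transcription and DNA replication, edgeR called 0, with 2 higher and 1 lower at an unadjusted p under 0.05 and a median log2 fold change of 0.05. Of 14 genes for mitochondrial RNA processing, 2 were higher and 0 lower, with a median of 0.14. The 2 were Hsd17b10 (0.67) and the tRNA-cleaving enzyme Elac2 (0.60). Of 11 nuclear regulators of respiration, edgeR called 0, with 2 higher and 1 lower at an unadjusted p under 0.05 and a median of -0.14. Their values ran from -1.37 for Ppargc1a, with overlap, to 0.94 for Esrra, without overlap (edgeR adjusted p = 0.467 and 0.0866).

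Promoters of the nuclear members were searched for the motifs of factors known to act on respiratory genes. RefSeq windows of 300 bases (GRCm38.p6, 250 before and 50 after the start) were matched for 69 of the 84 nuclear members, with 74 windows. Motifs were read on both strands and were GCGCA, any base, then GCGC for NRF1, CCGGAAG for GABPA, AAGATGGC for YY1, whose first bases can overlap the end of the GABPA motif, and the E-box CACGTG, to which MYC binds. NRF1 was in 24.3% of the members' windows and in 6.38% of all 21263 windows, GABPA in 21.6% and 11.6%, YY1 in 13.5% and 3.05%, and the E-box in 9.46% and 7.84%. Within the members, the NRF1 motif was in 2 of 18 windows of genes called higher and in 16 of 52 windows of genes tested and not called. The same counts were 3 of 18 and 13 of 52 for GABPA, 3 of 18 and 7 of 52 for YY1, and 0 of 18 and 7 of 52 for the E-box. A match describes the letters in the window only. Sequences around the match are shown for 3 called genes and for Sdha, which was not called, with the motif in capitals, so that the same kind of match can be seen in both (minus strand of GRCm38.p6, at chr2:36049349-36049378, chr7:30626124-30626153, chr10:80406869-80406898 and chr13:74350319-74350348 in the order given).
Ndufa8, NRF1: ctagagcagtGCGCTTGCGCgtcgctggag
Cox6b1, GABPA: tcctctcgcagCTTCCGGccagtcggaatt
Uqcr11, GABPA: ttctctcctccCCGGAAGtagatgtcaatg
Sdha, NRF1: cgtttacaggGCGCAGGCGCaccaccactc

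The matches began 30, 28, 66 and 98 bases before the RefSeq start of Ndufa8, Cox6b1, Uqcr11 and Sdha. The deposited coordinates of these genes differ from the RefSeq starts. They place the minus-strand starts of Ndufa8 and Cox6b1 at 36049406 and 30626151, so that these matches lie inside the deposited genes.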

How the data were processed

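RNA-seq was analysed from 3 Myc_Utx and 3 Myc_p53 mouse liver cancer cell lines, grouped by the labels. The authors deposited raw counts per gene for all lines, with a gene length, and the submitters' processing notes list Trimmomatic 0.36, STAR 2.5.3a, featureCounts 1.6.3, DESeq2 1.20.0 and GRCm38/mm10. Library type, strand setting and treatment of multi-mapping reads are not given in the sources used here. Total counts were 4656103 to 5473042 in Myc_Utx and 5370608 to 6937497 in Myc_p53 lines, and intervals of counting error do not cover differences between tumours.

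Counts were filtered with filterByExpr (minimum count 10), TMM-normalised and tested with edgeR 4.0.16 (quasi-likelihood F test, Benjamini-Hochberg adjustment over 11510 genes, threshold 0.05) in R 4.3.3. Standard errors were the log2 fold change divided by the root of F. For single genes, an exact two-sided permutation test of 3 against 3 lines cannot go below 0.1. Alternatives were no filter, DESeq2 size factors, total counts, scaling from nuclear genes, length offsets (robust spline with 5 degrees of freedom, MASS 7.3-60.0.1), DESeq2 1.42.0 and each line left out. The procedure was tested on simulated data whose changed genes had larger fold changes than any member, so recovery of changes of the members' size was not tested. Genes at 3 counts or fewer were treated as at the floor.

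The members and lists were chosen with earlier results of these data known. Named by rule were all mitochondrial genes, the complex I core, Sdh genes, Uqcrfs1, Uqcrc1, Uqcrc2, the head and c ring of complex V, the tissue isoforms, up to 3 called genes of lowest p per complex, called genes with a log2 fold change beyond 1, and called genes of the other lists (for lists with more than 4, the 4 of lowest p). Other genes named were chosen after their values were seen. The values of 1 gene are not reported here, though counts and medians include it. Repeated sequence was counted in GENCODE M21 transcripts, and promoter windows came from RefSeq (GRCm38.p6).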

Additional observations from a re-analysis of the deposited data

How the results depend on the processing

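The median log2 fold change of the nuclear genes stayed above 0 in each fit tried, at 0.29 with length offsets and 0.37 to 0.55 with 1 line left out, but the number called did not hold, and the genes below 0 went from 2 of 76 to 8 with length offsets and 5 without line 2D. Against 20, it was 13 with total counts only, 7 with length offsets, 32 with DESeq2 and 0 to 17 with 1 line left out, where fewer lines were fitted. In the other settings the cause was not tested. No filter gave 15, DESeq2 size factors 18 and scaling from nuclear genes 20. The mitochondrial median was -0.29 with length offsets and -0.11 to 0.12 with 1 line left out, with 0 genes called in any fit. Over the whole table, 805 higher and 885 lower became 1281 and 1578 with DESeq2, 619 and 995 with total counts, 691 and 591 with length offsets, and 3 to 836 and 1 to 1117 with 1 line left out. No filter and DESeq2 moved the median of all genes to -0.23 and -0.26. Per kilobase of deposited length, the nuclear share was 2.37% in Myc_Utx and 1.94% in Myc_p53 lines and the mitochondrial share 5.71% and 6.74%.

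Members whose direction turned with length offsets, none of which passed the test, were Atp5g2 (-0.13), Ndufs3 (-0.023), Ndufs8 (-0.13), mt-Nd1 (-0.27), mt-Nd5 (-0.10), mt-Nd6 (-0.095), Ndufa2 (-0.081), Ndufa6 (-0.23) and Ndufc1 (-0.034). mt-Nd1 was at -0.0011 with DESeq2 size factors and -0.043 with total counts, and mt-Nd2 at 0.019 with no filter. Of the genes named by rule, those that turned with 1 line left out had log2 fold changes that ranged from -0.038 to 0.15 for Atp5g2, -0.25 to 0.080 for mt-Cytb, -0.10 to 0.15 for mt-Nd1, -0.11 to 0.12 for mt-Nd2, -0.18 to 0.018 for mt-Nd4 and -0.0021 to 0.27 for mt-Nd5.

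No paired analysis was made, because each line came from a different mouse and the labels give no pairing of Myc_Utx with Myc_p53 lines.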
